A study of Mus musculus with 186 samples.

Results

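RNA was measured at 351 enhancer regions captured with RNA baits, in mouse cortical neurons after 60 min of sustained activity and in unstimulated neurons. All 351 regions of the captured table were members, out of 940 enhancer regions that the study also read in total RNA. They carry 169 nearest genes, as the deposited table assigns them, and the basis on which they were picked for capture is not in the labels. The neurons came from CD1 embryos at embryonic day 16.5, were grown for 7 to 8 days in vitro, and received DMSO as vehicle in every group used here. Both groups held 4 replicates. For each unstimulated replicate 2 cultures of 1 dissection, grown apart, were averaged, so 12 captured libraries of the 186 samples of the series entered the main comparison. The replicate numbers 1 to 4 paired the groups. Captured cultures at 20 min of sustained activity and at 20 and 60 min of brief activity, 4 replicates each, shared the fit. How activity was evoked, and how many animals were pooled in a dissection, are not in the labels.

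Enhancers are stretches of DNA that bind transcription factors and raise the transcription of a gene on the same chromosome. Active enhancers are themselves transcribed into short-lived enhancer RNA, which serves as a readout of their activity. In neurons, calcium entry during firing turns on immediate-early genes such as Fos, Npas4 and Nr4a1 through factors that bind existing enhancers and promoters, among them CREB, which binds the cAMP response element (CRE), and the serum response factor. The proteins made from these genes, such as the Fos family members of the AP-1 dimer, then act on later genes. RNA over an enhancer region was read here in bulk culture, where fewer responding cells and less RNA per cell cannot be told apart.

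The regions lie on the mm9 build, and sequence of that build was not used here. To show sequence beside the values, the 150 bases before the start of 4 nearest genes with large region changes are given, from RefSeq on GRCm38.p6. Capitals mark TGACG on either strand, the core of the CRE, and the full CRE TGACGTCA, which overlaps it.
Scg2, chr1:79440027-79440176, minus strand: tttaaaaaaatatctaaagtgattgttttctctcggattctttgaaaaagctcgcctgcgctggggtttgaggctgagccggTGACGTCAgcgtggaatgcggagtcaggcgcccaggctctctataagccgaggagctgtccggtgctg
Nr4a2, chr2:57124004-57124153, minus strand: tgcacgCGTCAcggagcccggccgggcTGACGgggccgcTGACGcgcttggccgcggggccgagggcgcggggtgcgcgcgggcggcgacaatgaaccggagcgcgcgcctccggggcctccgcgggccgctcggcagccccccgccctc
Nr4a1, chr15:101266696-101266845, plus strand: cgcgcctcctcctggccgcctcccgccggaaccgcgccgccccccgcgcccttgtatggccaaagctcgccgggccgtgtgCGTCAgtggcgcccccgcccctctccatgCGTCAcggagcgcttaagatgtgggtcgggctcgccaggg
Fos, chr12:85473740-85473889, plus strand: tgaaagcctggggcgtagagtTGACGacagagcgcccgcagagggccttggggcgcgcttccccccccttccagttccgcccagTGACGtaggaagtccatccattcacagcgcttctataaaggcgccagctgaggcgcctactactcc

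Over the 250 bases before each start, TGACG on either strand was in 24 of 46 promoters (52.2%) of nearest genes with a region that rose, defined below, and in 43 of 109 (39.4%) of the other nearest genes. It was in 17.8% of all 32851 promoters of the table. TGACGTCA was in 6 of the 46, in 6 of the 109 and in 1.55% of all. TGANTCA, the AP-1 motif read on both strands, was in 2 of the 46, in 6 of the 109 and in 6.75% of all. The table matched 39 of the 55 genes with a region that rose and 85 of the other 114, several with more than 1 start. These are matches of letters in promoters, and the captured regions themselves were not searched.

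The captured table holds a signal per region, and its values are whole multiples of 1 step in every library, taken as 1 read. Replicates 1 and 2 differed from replicates 3 and 4 in depth and scale. In replicates 1 and 2 the unstimulated libraries held 141067 to 943575 reads and the sustained ones 212306 to 292288, with 7 to 71 and 47 to 53 regions at 0. In replicates 3 and 4 they held 252358 to 393568 and 439586 to 801945 reads, with at most 2 regions at 0. The signal summed over all regions was 3702.6 to 6139.9 in sustained replicates 1 and 2 and 1046.5 to 1326.3 in sustained replicates 3 and 4. In unstimulated libraries the sums were 1225.4 to 2707.0 and 655.2 to 718.4, below the sustained ones in both sets. The deep library of 943575 reads was the first culture of dissection 1, and its partner held 160676. In total RNA, introns of 5 neuron markers, the most abundant being Map2, summed to 2729.8 to 3416.6 RPM (reads scaled to a common total) in unstimulated and 2986.3 to 3464.3 in sustained cultures. The 4 astrocyte markers summed to 249.6 to 420.2 over both groups, the 3 oligodendrocyte markers to 12.4 to 21.7, the 2 measured endothelial markers to 1.24 to 1.92 and the 3 microglial markers to 0.226 to 0.508. Marker sums of the 2 groups overlapped for each type except microglia, whose level was near 0, and their part in the enhancer changes was not tested.

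At 60 min of sustained activity 95 regions near 55 genes were higher than in unstimulated neurons and 6 regions near 4 genes were lower. Of the 95 rises, 26 lay near 9 genes: the AP-1 genes Fos, Fosb, Fosl2 and Junb, the nuclear receptor genes Nr4a1, Nr4a2 and Nr4a3, the clock gene Per1 and the peptide precursor gene Scg2. The others lay near 46 further genes, such as Hsd17b12 and AI836003. Not all regions of the 9 genes rose, as with 3 of 9 near Per1 and 2 of 5 near Nr4a3. Among the further genes, 4 of 5 regions rose near Gltscr2 and 1 of 9 near Egr1. The 95 rises ranged from 1.04 to 6.75 on the log2 scale with a median of 2.27, and the falls from -0.96 to -1.81. The test was limma on log2 of the signal plus 0.240, with the replicate number as a block and Benjamini-Hochberg adjustment over the 341 regions that passed the filter on low values. At an adjusted p under 0.05 it called 27.9% of the tested regions higher and 1.76% lower, 29.6% in all. Of the 95, 94 were higher in all 4 pairs, the exception being Scg2 region 2, and in 60 the 4 sustained values lay above all 4 unstimulated ones. The groups did not overlap in 63 of all 351 regions upward (17.9%) and in 7 downward (1.99%). Without the block 51 regions were called higher, all of them among the 95, and 0 lower (5 lower at an unadjusted p under 0.05). With only replicate 4 left out, 68 were called higher and 1 lower, and without replicate 3 these were 81 and 2.

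The number of calls in each direction depended on how the libraries were scaled. On the deposited scale the median region was 0.50 higher on the log2 scale. With libraries rescaled by the median ratio the median was -0.11, and 74 of 329 regions were higher (22.5%) and 44 lower (13.4%). With the same read total in every library the median was -0.35, with 65 of 335 higher (19.4%) and 94 lower (28.1%). With edgeR on recovered reads and TMM scaling the median was -0.31, with 46 higher (13.5%) and 42 lower (12.3%). Of the 95 rises, 45 near 33 genes were called higher under all of these, and those 45 held the 12 largest rises. The 6 falls were called lower under each of them. Since these scalings all lowered the median region, they were no separate test of a fall. On the deposited scale edgeR called 2 regions lower in all, and limma without the block called 0. Directions below are on the deposited scale, and a region near the median shift can turn under another scale.

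**Figure D1:**
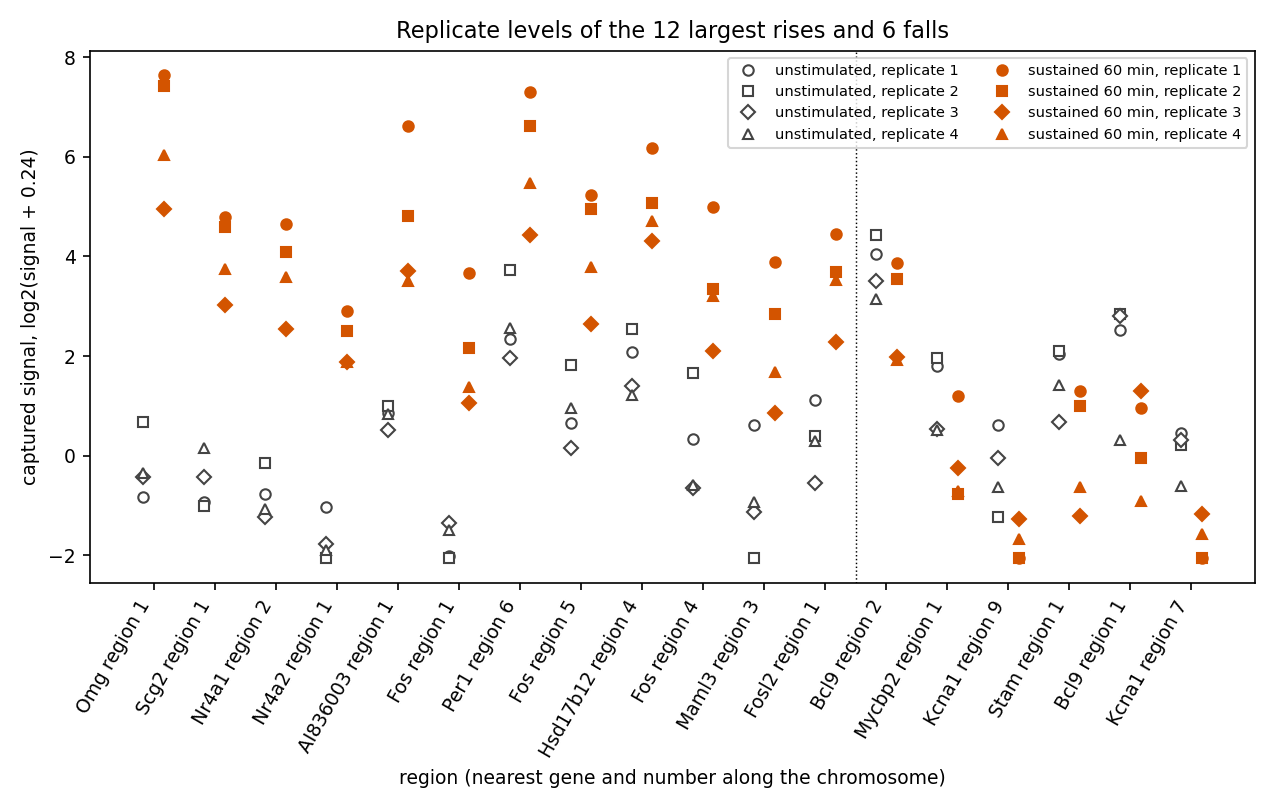
Captured signal of the 12 largest rises (left of the dotted line) and the 6 falls, as log2 of the signal plus 0.24, in each of 4 unstimulated replicates (open) and 4 replicates at 60 min of sustained activity (filled). In the 12 rises the sustained values lay above all unstimulated ones, while among the falls only Kcna1 regions 7 and 9 had groups that did not overlap.

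Regions are numbered from the lower coordinate among those of 1 nearest gene, and values follow in the order of replicates 1 to 4. The largest rise was Omg region 1 (chr11:74985460-74986620). Its signal was 0.321, 1.35, 0.501 and 0.547 in unstimulated and 199, 171, 30.7 and 65.7 in sustained cultures. All 4 sustained values were more than an order of magnitude above every unstimulated one, and the change was 6.75 ± 0.52 (log2, SE, limma adjusted p = 3.0e-08). By signal per kb it ranked between 168 and 285 of the 351 regions in the unstimulated replicates and between 1 and 3 in the sustained ones. Omg encodes a myelin glycoprotein that limits neurite outgrowth, but Omg region 2 lies at chr11:79397260-79398270 and both regions together span 4413 kb, so at least 1 of them is far from the gene it is assigned to. Omg region 2 had a log2 change of -0.56 ± 0.69 (adjusted p = 0.59) and was at 0 in sustained replicates 1 and 2.

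Scg2 region 1 (chr1:79428480-79429890) lies near the gene of secretogranin II, a precursor of secreted neuropeptides stored in dense-core vesicles, whose promoter holds the full CRE shown above. Its signal was 0.289, 0.257, 0.505 and 0.866 unstimulated and 27.5, 23.7, 7.92 and 13.1 after sustained activity, with no overlap. The log2 change was 4.59 ± 0.50 (adjusted p = 2.7e-06). It ranked between 154 and 302 per kb before and between 12 and 47 after.

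Nr4a1 region 2 (chr15:101083840-101085090) lies near the gene of an orphan nuclear receptor. Its signal went from 0.348, 0.669, 0.189 and 0.237 to 24.9, 16.7, 5.62 and 11.7, a log2 change of 4.52 ± 0.35 (adjusted p = 3.0e-08). The 4 pairs differed by 3.77 to 5.42. The SE comes from the fit of all 5 vehicle groups and is not the spread of these 4 pairs alone. Nr4a2 region 1 (chr2:56956600-56957650), the single region near a related receptor, went from 0.253, 0, 0.0510 and 0.0283 to 7.21, 5.44, 3.44 and 3.46. Its change was 3.98 ± 0.40 (adjusted p = 9.9e-07), and it was near 0 in all unstimulated replicates.

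AI836003 region 1 (chr15:98001280-98003950) went from 1.56, 1.75, 1.20 and 1.56 to 97.4, 27.7, 12.7 and 11.2, a change of 3.85 ± 0.43 (adjusted p = 3.3e-06). Its 4 unstimulated values lay close together and its sustained values were far apart, with replicate 1 the highest. All 4 regions of AI836003 lay within 10.9 kb, and regions 1, 2 and 3 rose.

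Around Fos, which encodes a subunit of the AP-1 transcription factor, 5 of 6 regions rose. Fos region 1 (chr12:86776490-86777950) went from 0.00844, 0, 0.150 and 0.117 to 12.5, 4.22, 1.85 and 2.37 (3.80 ± 0.56, adjusted p = 3.5e-05). Fos region 5 (chr12:86826280-86829680) went from 1.34, 3.31, 0.871 and 1.70 to 37.3, 30.7, 6.05 and 13.5 (3.26 ± 0.39, adjusted p = 5.4e-06). Fos region 4 (chr12:86818760-86820490) went from 1.02, 2.91, 0.396 and 0.422 to 31.4, 9.99, 4.06 and 8.94 (3.23 ± 0.47, adjusted p = 3.2e-05). In all 3 regions the groups did not overlap. Fos regions 2 and 3 changed by 2.75 ± 0.39 and 2.53 ± 0.57. Fos region 6 (chr12:86911680-86913040), the farthest along the chromosome, had a log2 change of 0.20 ± 0.42 (adjusted p = 0.77), with sustained values of 0, 5.30, 0.169 and 0.447.

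Of the other largest rises, Per1 region 6 (chr11:68910050-68912140) belongs to a repressor of the circadian clock. Its signal went from 4.86, 13.0, 3.63 and 5.63 to 157, 97.2, 21.4 and 44.4 (3.31 ± 0.38, adjusted p = 3.3e-06), and it ranked between 4 and 9 per kb in the sustained replicates. Hsd17b12 region 4 (chr2:94077540-94080720), near the gene of an enzyme of fatty acid elongation, went from 3.99, 5.62, 2.41 and 2.08 to 72.4, 33.4, 19.6 and 26.1 (3.26 ± 0.37, adjusted p = 3.3e-06). Maml3 region 3 (chr3:52001620-52003210), near a coactivator of Notch signalling, went from 1.30, 0, 0.220 and 0.286 to 14.5, 6.91, 1.57 and 2.98 (3.18 ± 0.40, adjusted p = 7.8e-06). Fosl2 region 1 (chr5:32434900-32437830), near another AP-1 subunit, went from 1.93, 1.07, 0.442 and 0.987 to 21.6, 12.7, 4.60 and 11.3 (3.17 ± 0.48, adjusted p = 4.2e-05). The sustained values lay above the unstimulated ones in each of these 4 regions.

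The 6 regions that fell lay near Kcna1, Bcl9, Stam and Mycbp2. Kcna1 encodes a voltage-gated potassium channel subunit. Kcna1 region 7 (chr6:126568000-126569300) went from 1.13, 0.919, 1.01 and 0.413 to 0, 0, 0.202 and 0.0959, a change of -1.81 ± 0.47 (adjusted p = 0.0066). Kcna1 region 9 (chr6:126576680-126577800) went from 1.29, 0.187, 0.724 and 0.409 to 0, 0, 0.174 and 0.0728 (-1.44 ± 0.50, adjusted p = 0.037). Both were at 0 in the 2 shallower sustained libraries and low in the deeper ones. Of the 10 regions near Kcna1, 7 were tested and all 7 had changes below 0, from -1.81 to -0.37, 2 of them called.

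Bcl9 regions 1 and 2, near a coactivator of Wnt signalling, changed by -1.79 ± 0.63 (adjusted p = 0.037) and -0.96 ± 0.32 (adjusted p = 0.032). Bcl9 region 2 (chr3:97099260-97100360) went from 16.4, 21.2, 11.1 and 8.66 to 14.3, 11.5, 3.70 and 3.53. Among the 6 falls it had the highest signal, ranking between 7 and 15 per kb before and between 47 and 70 after. Stam region 1 (chr2:13979320-13980410), near an adaptor of endosomal sorting, went from 3.87, 4.05, 1.37 and 2.44 to 2.21, 1.76, 0.195 and 0.408 (-1.44 ± 0.36, adjusted p = 0.0047). Mycbp2 region 1 (chr14:103748230-103749710), near a ubiquitin ligase gene, went from 3.24, 3.64, 1.20 and 1.19 to 2.06, 0.349, 0.607 and 0.374 (-1.33 ± 0.43, adjusted p = 0.025). In the Bcl9, Stam and Mycbp2 regions the groups overlapped across replicates although all 4 pairs fell.

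Changes were larger in replicates 1 and 2 and more even in replicates 3 and 4. The median log2 change over tested regions was 1.26 and 0.64 in pairs 1 and 2 and 0.23 and 0.25 in pairs 3 and 4. Fitted alone, replicates 1 and 2 gave 49 regions higher (14.5%) and 1 lower (0.295%) of 339, and replicates 3 and 4 gave 122 higher (36.6%) and 35 lower (10.5%) of 333. Of the 95 rises, all 95 were higher in both sets on average, 48 were called in replicates 1 and 2 alone and 93 in replicates 3 and 4 alone. The mean change of the 95 had a median of 2.61 in replicates 1 and 2 and 1.80 in replicates 3 and 4, and it was larger in replicates 1 and 2 for 84 of them. The 6 falls were all called in replicates 3 and 4 alone. Replicates 3 and 4 added 29 regions called higher and 29 called lower that the fit of 4 pairs did not call. The sets differ in depth and in scale at once, and which of these goes with the difference cannot be told apart.

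**Figure D2:**
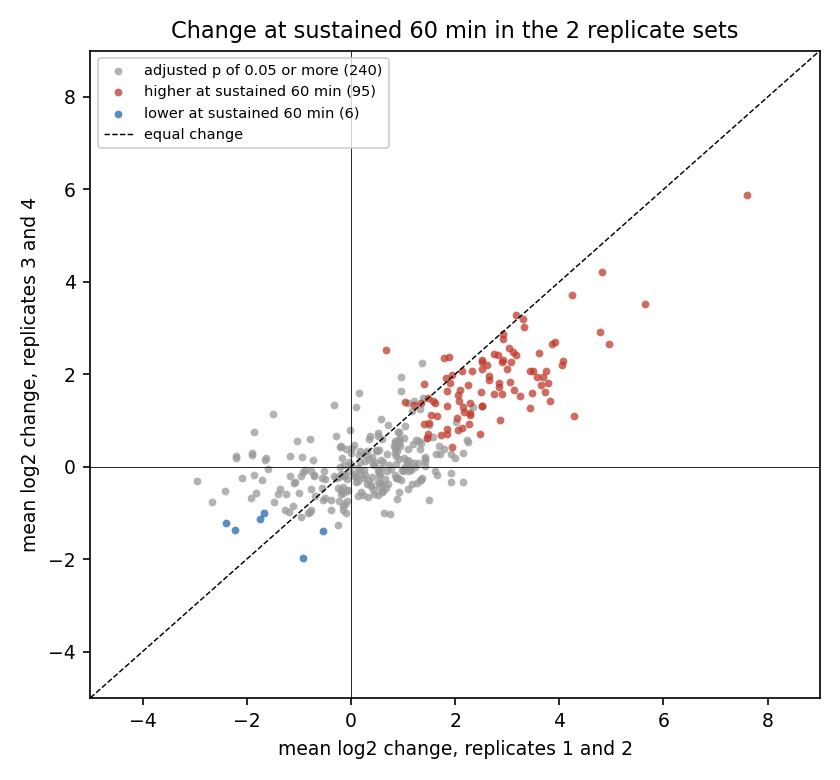
Mean log2 change at 60 min of sustained activity in replicates 1 and 2 (x axis) against replicates 3 and 4 (y axis) for the 341 tested regions, coloured by the call over all 4 pairs. Most of the 95 rises lie below the dashed line of equal change (84 of 95 were larger in replicates 1 and 2), and uncalled regions spread widely along the x axis.

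Of the 7 gene lists, immediate-early transcription factors had the most regions, 54 near 15 genes, and 25 of them near 10 genes rose (46.3%, against 27.9% of all tested regions). Their median log2 change was 1.18, against 0.50 over all regions. In replicates 3 and 4 alone 33 of the 54 were called higher, and in replicates 1 and 2 alone 15. After rescaling by the median ratio 22 were higher and 2 lower. The AP-1 genes accounted for most: 5 of 6 regions near Fos, 5 of 7 near Fosb, 3 of 3 near Fosl2 and 3 of 4 near Junb. Fosb regions ranged from 0.81 to 2.41 and Junb regions from 0.74 to 2.62. The 7 lists were chosen with earlier results of these data known, and their regions are among all tested regions. The shares of the lists are thus a description.

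Around the nuclear receptor genes, Nr4a1 regions 1 and 2 and the Nr4a2 region rose. Nr4a1 region 1 (chr15:101076090-101077720) went from 3.08, 3.27, 0.893 and 1.90 to 34.6, 22.2, 5.92 and 13.5 (2.80 ± 0.35, adjusted p = 6.6e-06). Nr4a1 region 3, farther along the chromosome, had a change of 0.14 ± 0.43 (adjusted p = 0.85). Nr4a1 region 4 had a change of 0.91 ± 0.49 (adjusted p = 0.19), with 1.76 and 2.55 in pairs 1 and 2 but -0.33 and -0.34 in pairs 3 and 4. Near Nr4a3, 2 of 5 regions rose, and region 5 is described with the time course.

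Npas4 encodes a transcription factor that is specific to neurons and depends on their activity. Npas4 region 3 (chr19:4999800-5002890) went from 12.7, 15.7, 7.09 and 4.19 to 125, 61.2, 25 and 26.8, with no overlap (2.40 ± 0.31, adjusted p = 9.8e-06). Npas4 region 2 rose by 1.50 ± 0.35 (adjusted p = 0.0024), and region 1 had a change of 1.45 ± 0.56 (adjusted p = 0.056). In region 1 pair 2 differed by 0.06 and the other pairs by 1.81 to 2.09. Npas4 region 4 had a change of -0.05 ± 0.34 (adjusted p = 0.94). Region 2 was no longer called with the same read total (adjusted p = 0.14) or with TMM (0.057).

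Egr1 encodes a zinc finger transcription factor of the first wave, and 1 of its 9 regions rose. Egr1 region 3 (chr18:35018920-35020080) went from 0.747, 0.910, 0.152 and 0.315 to 3.19, 4.34, 0.828 and 2.25, higher in each pair by 1.45 to 2.16 (1.85 ± 0.27, adjusted p = 3.2e-05), although the groups overlapped. With TMM its adjusted p was 0.069. Regions 5 and 6 had changes of 1.19 ± 0.45 and 1.04 ± 0.39, each with an adjusted p of 0.051. Regions 1, 2, 4 and 8 lay between 0.43 and 0.82, and regions 7 and 9 at -0.07 and -0.16, with adjusted p from 0.39 to 0.95. Regions 8 and 9 lie over a megabase from the others. The Klf4 and Egr4 regions did not rise: Klf4 region 1 had a change of -0.03 ± 0.59 (adjusted p = 0.98), and Egr4 region 1 of -1.72 ± 0.64 (adjusted p = 0.051).

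**Figure D3:**
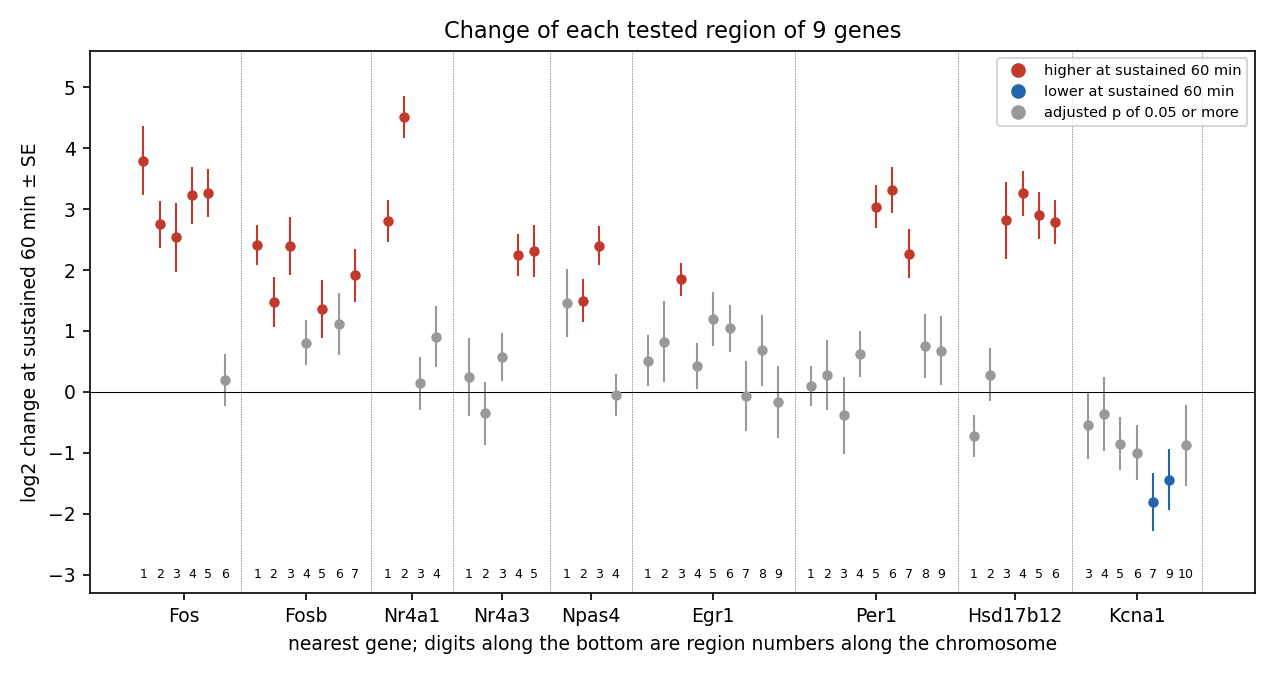
Log2 change at 60 min of sustained activity (± SE, limma) of each tested region of 9 nearest genes, in order along the chromosome, coloured by call. The share of regions that rose differed between genes, with 5 of 6 for Fos but 1 of 9 for Egr1, whose regions span 1491 kb. The 3 rises of Per1 are adjacent, and all 7 tested Kcna1 regions lie below 0.

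Per1 regions 5, 6 and 7, adjacent to each other, rose by 3.04 ± 0.35, 3.31 ± 0.38 and 2.27 ± 0.40 (adjusted p of 3.3e-06, 3.3e-06 and 0.00021). The other 6 of its 9 regions lay between -0.39 and 0.76 and were not called. Per1 region 1 had high signal, 15.9, 17.3, 4.70 and 4.33 unstimulated and 23.2, 24.4, 3.23 and 3.89 sustained (0.09 ± 0.33, adjusted p = 0.87). With the same read total it was called lower (-0.95, limma adjusted p = 0.0039), as it was with TMM. Per2 region 2 had a change of 0.02 ± 0.46 (adjusted p = 0.98). Together the clock genes had 3 of 11 regions higher (27.3%, against 27.9% of all tested regions). Their median was 0.63, and -0.019 after rescaling by the median ratio.

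The feedback regulators of the ERK kinase pathway had 4 of 13 regions higher (30.8%, against 27.9% of all tested regions), near 4 of 6 genes. Their median was 0.50, equal to that of all regions to 2 decimals. Dusp4, Dusp1 and Dusp6 encode phosphatases that inactivate MAP kinases. Dusp4 region 1 (chr8:35868710-35870210) went from 2.26, 2.88, 1.11 and 1.83 to 21.8, 22.7, 4.98 and 9.89 (2.56 ± 0.38, adjusted p = 3.8e-05). Errfi1 region 1 (chr4:150245720-150246790), near an inhibitor of the EGF receptor, went from 1.86, 2.43, 0.897 and 1.65 to 13.5, 15.7, 4.69 and 6.45 (2.31 ± 0.38, adjusted p = 9.4e-05). Both had groups that did not overlap. Dusp6 region 3 rose by 1.92 ± 0.42 (adjusted p = 0.0017), while Dusp6 regions 1 and 2 had changes of 0.11 ± 0.53 and 0.05 ± 0.50.

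The genes of cAMP and CREB feedback had 6 of 9 regions higher (66.7%, against 27.9% of all tested regions), near 3 of 4 genes. Their median was 2.12. Sik1, a kinase that restrains CREB coactivators, had 3 of 4 regions higher. Sik1 region 4 (chr17:31993200-31994330) went from 0.142, 0.535, 0.234 and 0.321 to 10.3, 5.14, 1.03 and 2.33 (2.80 ± 0.56, adjusted p = 0.00066), and Sik1 region 1 had a change of 0.48 ± 0.55. Both regions near Nfil3, a transcriptional repressor, rose. Nfil3 region 2 (chr13:53077580-53078880) rose by 2.66 ± 0.39 (adjusted p = 3.2e-05), and Nfil3 region 1 (chr13:53057460-53061100) went from 17.9, 18.3, 4.64 and 6.06 to 91.6, 49.1, 25.9 and 31 (2.12 ± 0.33, adjusted p = 5.3e-05). Rgs4 region 1, near a regulator of G protein signalling, had a change of -0.81 ± 0.52 (adjusted p = 0.28).

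Synaptic and dendritic effectors had 3 of 7 regions higher (42.9%, against 27.9% of all tested regions): Omg region 1, Arc region 1 and Rasgrp1 region 1. The median change of the 7 was 0.70. The assignment of Omg region 1 to its gene is uncertain, as described above. Arc organises the removal of glutamate receptors from synapses, and its single region (chr15:74509120-74510330) went from 0.0519, 0.729, 0.106 and 0.0647 to 3.68, 3.00, 1.18 and 1.93. The groups did not overlap, and the change was 2.59 ± 0.54 (adjusted p = 0.0011). Rasgrp1 region 1, near an activator of Ras, rose by 1.58 ± 0.49 (adjusted p = 0.019, and 0.34 with TMM). Homer1 region 1 (chr13:94176310-94177520), near a postsynaptic scaffold gene, had values of 83.3, 65.0, 19.8 and 11.2 unstimulated and 161, 71.5, 18 and 11.2 sustained. Pairs 1, 2 and 3 differed by 0.94, 0.14 and -0.14, and the fit gave 0.23 ± 0.29 (adjusted p = 0.59). With the same read total it was called lower (-0.82, limma adjusted p = 0.0072), as it was with TMM.

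Secreted factors and peptide processing genes had a median of 1.37. Of their 13 regions 6 were higher, near 3 of 7 genes (46.2%, against 27.9% of all tested regions). Besides the 2 regions of Scg2 these were 2 near Pam, which amidates peptides, and 2 near Cyr61, a secreted matrix protein. Pam region 2 rose by 1.48 ± 0.39 (adjusted p = 0.0067) and Cyr61 region 1 by 1.37 ± 0.37 (adjusted p = 0.0071), and neither was called under any of the 3 other scalings. Pcsk1 region 1 (chr13:75272550-75273650), near a prohormone convertase gene, went from 0.0967, 0, 0.182 and 0.0961 to 0, 1.99, 2.78 and 0.824. Pair 1 fell and the other 3 pairs rose by 1.66 to 3.21, so the fit gave 1.81 ± 0.75 (adjusted p = 0.079). After rescaling by the median ratio Pcsk1 region 1 was called higher. Adamts1 region 2 and Acan region 1 had changes of 0.39 ± 0.53 and -0.18 ± 0.55.

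Growth arrest and mRNA turnover regulators had 4 of 13 regions higher (30.8%, against 27.9% of all tested regions), near 3 of 4 genes. Their median was 0.94, and after rescaling by the median ratio 1 region was higher and 1 lower. Btg2 region 5 (chr1:135989160-135990880), near an inhibitor of proliferation, went from 1.81, 0.600, 0.596 and 1.54 to 19.9, 11.9, 2.90 and 6.71 (2.76 ± 0.39, adjusted p = 2.3e-05). Cdkn1a region 1 (chr17:29181500-29186370) had values of 55.4, 56.7, 25.4 and 43.3 unstimulated and 215, 114, 42.4 and 70.6 sustained (1.10 ± 0.30, adjusted p = 0.0090). Cdkn1a region 1 and Gadd45b region 3 (1.28 ± 0.39, adjusted p = 0.016) were not called under the 3 other scalings. Btg2 region 2 and Gadd45g region 1 had changes of -0.18 ± 0.40 and 0.09 ± 0.57. On the deposited scale 0 regions of the 7 lists passed the test downward in limma, and 0 in edgeR. Under the other scalings 5 list regions were called lower after rescaling by the median ratio, 7 with TMM and 17 with the same read total. On the deposited scale, at an unadjusted p under 0.05, 1 region was lower in each of 3 lists: Egr4 region 1, Spry4 region 2 and Per2 region 1.

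The rises were also counted by place, where 27.9% of all tested regions were called higher and 1.76% lower. With regions less than 100000 bases apart joined, the 351 regions formed 175 loci, 78 of them with 2 or more regions, and 51 loci held a rise. Of the 38 larger loci with a rise, 6 rose in all their regions and 32 in some. A called rise and a called fall together were in 0 loci, but limma called only 6 falls in all. In edgeR on the deposited scale the calls downward numbered 2 in all. Among 176 pairs of adjacent regions, both rose in 39, 1 in 49 and neither in 88. Whether neighbours rose together more often than the share over all regions gives was not tested. The regions that rose had a median length of 1560 bases and those not called 1150, over a range of 1010 to 5190 for all regions, and a longer region collects more reads. Of the 95 rises, 34 had an unstimulated library at 0. Single unstimulated libraries had up to 71 of the 351 regions at 0, and the share over all regions is not given here.

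The comparison with 20 min of sustained activity asked which regions changed between the times. At 60 min 22 regions near 16 genes were higher than at 20 min (6.45% of 341) and 1 was lower (0.293%; 6.74% in all), with a median difference of 0.19 over all regions (limma, adjusted over all tested regions). All 4 pairs were higher in each of the 22. After rescaling by the median ratio 24 regions were higher, these 22 among them, and 5 lower. With the same read total 20 were higher and 12 lower, at a median difference of -0.16, and with edgeR and TMM 19 were higher and 5 lower. Without replicate 4 the calls numbered 14 higher and 0 lower. Of the 22, 21 also rose above unstimulated, the exception being Mta2 region 1, 2 were called at 20 min already, and 8 had a value at 20 min below unstimulated. Against the same unstimulated cultures, 43 regions were called higher at 20 min (12.6%), 40 of them among the 95.

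The largest differences were at Fosl2 region 2, Hsd17b12 region 3 and Nr4a3 region 5. Fosl2 region 2 (chr5:32461210-32462610) had 0, 0.385, 0.744 and 0.350 at 20 min and 10.8, 5.48, 6.22 and 2.64 at 60 min, 3.43 ± 0.60 higher (adjusted p = 0.00087). Hsd17b12 region 3 (chr2:94075640-94076700) had 0, 0, 0.599 and 0.153 at 20 min and 6.43, 6.07, 3.05 and 1.62 at 60 min (3.43 ± 0.64, adjusted p = 0.0016). Nr4a3 region 5 (chr4:48100770-48101890) had 0, 0, 0.253 and 0.191 at 20 min and 2.86, 3.40, 4.34 and 2.92 at 60 min (3.42 ± 0.43, adjusted p = 9.5e-05). In these 3 regions the levels at 20 min overlapped the unstimulated ones, and at 60 min all 4 replicates lay above every unstimulated value.

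Nr4a2 region 1 had 0.521, 0.477, 0.776 and 0.201 at 20 min, and its level at 60 min was 2.80 ± 0.40 higher (adjusted p = 0.00016). Scg2 region 1 had 1.02, 2.40, 1.84 and 1.77 at 20 min (3.09 ± 0.50 higher at 60 min, adjusted p = 0.00051). Hsd17b12 region 4 had 3.87, 5.45, 4.38 and 4.43 at 20 min and was 2.83 ± 0.37 higher at 60 min (adjusted p = 9.8e-05). Its values at 20 min lay within the pooled range of 2.08 to 5.62 of the unstimulated replicates. By pair, replicates 3 and 4 were higher at 20 min than unstimulated, and replicates 1 and 2 slightly lower. Omg region 1 was already at 54.8, 28.2, 8.94 and 9.18 at 20 min and was 2.25 ± 0.52 higher at 60 min (adjusted p = 0.0095).

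At several Fos, Nr4a1 and Npas4 regions a difference between 20 and 60 min was not detected. The difference between the times was -0.04 ± 0.35 at Nr4a1 region 2 (adjusted p = 0.96), 0.19 ± 0.39 at Fos region 5 (0.86), -0.41 ± 0.47 at Fos region 4 (0.77) and 0.52 ± 0.31 at Npas4 region 3 (0.43). Nr4a1 region 2 had 29.5, 18.2, 6.48 and 9.0 at 20 min. The Fosl2 gene thus had region 1, whose difference was 0.76 ± 0.48 (adjusted p = 0.46), beside regions 2 and 3, which passed the test. The single region below its level at 20 min was Kcna1 region 7, which had 1.59, 0.492, 0.646 and 0.528 at 20 min (-1.68 ± 0.47, adjusted p = 0.036).

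**Figure D4:**
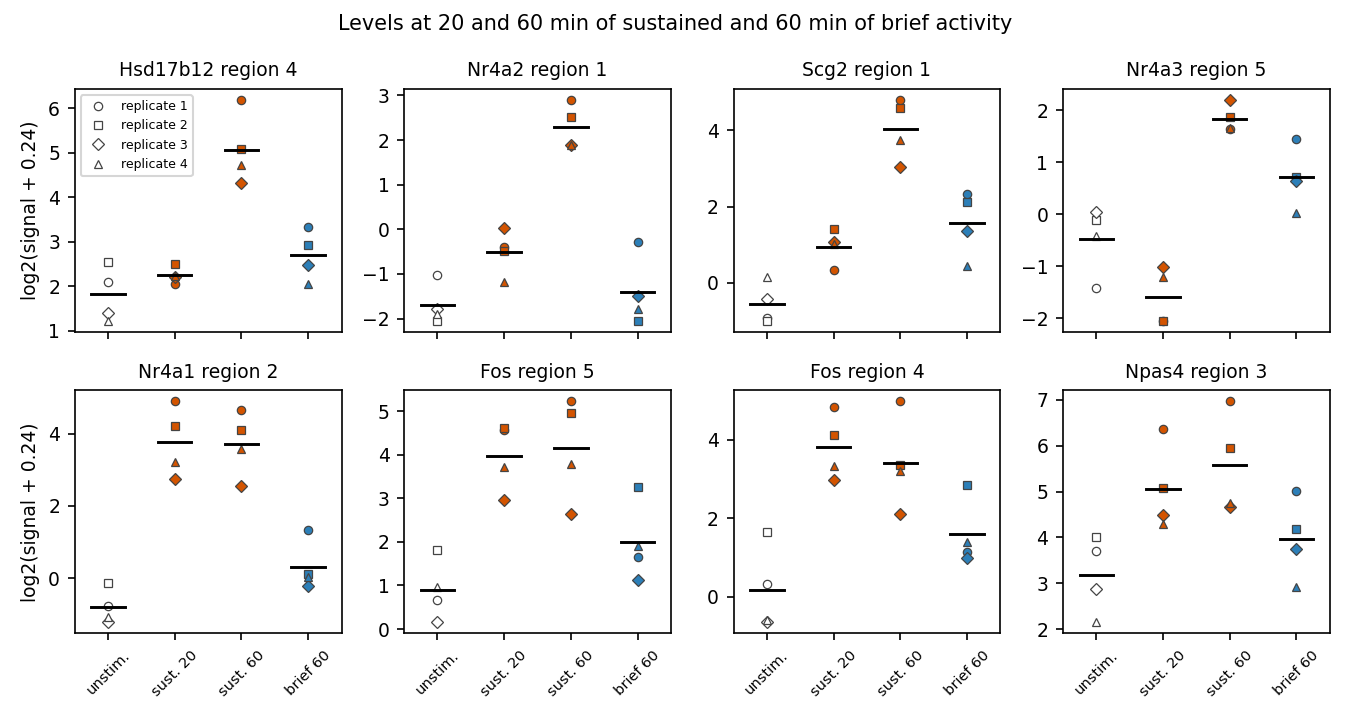
Captured signal as log2 of the signal plus 0.24 in unstimulated cultures, at 20 and 60 min of sustained and at 60 min of brief activity, for 4 replicates per group (symbols) with their mean (bar). The upper 4 regions were higher at 60 than at 20 min of sustained activity, and in the lower 4 a difference between the times was not detected.

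At 60 min, sustained activity gave 72 regions a higher level than brief activity (21.1% of 341) and 5 a lower one (1.47%; 22.6% in all), with a median difference of 0.37. All 4 pairs were higher in 68 of the 72, and 63 of them also rose above unstimulated. After rescaling by the median ratio 60 were higher and 39 lower, and 59 of the 72 were called higher under both scalings. With the same read total the balance turned, with 53 higher and 57 lower at a median difference of -0.14. With edgeR and TMM 46 were higher and 21 lower. Without replicate 4 the calls were 42 higher and 2 lower, and with only the 2 groups in the fit 40 and 0. Against the same unstimulated cultures, brief activity at 60 min gave 1 call, Omg region 1, and at an unadjusted p under 0.05 43 regions were higher and 6 lower.

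The largest differences from brief activity were at Omg region 1, Nr4a2 region 1 and Fos region 1. Omg region 1 had 4.31, 19.2, 7.73 and 3.01 after brief activity, and its level after sustained activity was 3.72 ± 0.52 higher (adjusted p = 9.1e-05). Nr4a2 region 1 had 0.583, 0, 0.117 and 0.0487 after brief activity (3.70 ± 0.40, adjusted p = 4.6e-06), and Fos region 1 had 0, 0, 0.203 and 0.261 (3.64 ± 0.56, adjusted p = 0.00015). In the Nr4a2 and Fos regions the levels after brief activity overlapped those of unstimulated cultures. Brief 60 min replicates 1 and 2 held 124696 and 100848 reads, with 80 and 85 regions at 0, which limits what a value of 0 shows there.

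Egr4 region 1, Kcna2 region 1 and Spry4 region 2 had the largest differences downward, by -2.53 ± 0.64, -1.43 ± 0.44 and -1.28 ± 0.40 (adjusted p of 0.0074, 0.024 and 0.026). Egr4 region 1 (chr6:85454620-85455730) had 8.68, 3.66, 0.251 and 0.510 after brief and 0, 0, 0.100 and 0.349 after sustained activity. Its difference was carried mainly by replicates 1 and 2. Arc region 1 and Nr4a3 region 5 rose above unstimulated and differed from brief activity by 1.22 ± 0.54 and 1.13 ± 0.43, which did not pass (adjusted p of 0.12 and 0.069).

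The same regions were read in total RNA libraries made without capture, with 2 replicates per group. Over 940 regions, the unstimulated and sustained 60 min libraries of this kind held 4133 to 7944 reads. Captured libraries of the same groups held 141067 to 943575 over 351 regions. All 351 captured regions are in that table, and 315 of them were among the 388 that passed its filter. At 60 min of sustained activity 40 of the 315 rose and 2 fell, and over the 388 tested regions 10.6% were called higher and 0.515% lower (limma, adjusted p under 0.05). Of 93 captured rises tested there, 92 had a change above 0 and 37 were called (39.8%), while of 217 regions not called in capture 3 were called higher (1.38%). The median change was 1.72 over those 93 regions and -0.07 over the 217. Across 314 regions tested in both tables the changes had a Pearson correlation of 0.83 and a Spearman correlation of 0.77, as a description, and the labels do not say whether both kinds of library came from the same cultures. Rescaled by the median ratio, 15 of the total RNA regions were called higher and 2 lower, and leaving out any 1 of the 4 replicates left 4 to 11 calls.

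Omg region 1 had a deposited signal of 0.327 and 0.278 in unstimulated and 20.0 and 18.4 in sustained total RNA, a log2 change of 5.86 ± 0.49 (adjusted p = 0.00049). Fos region 4 had 0.0183 and 0.0769 against 0.962 and 1.62 (4.18 ± 0.56, adjusted p = 0.0067), and Nr4a1 region 2 had 0.0374 and 0.0620 against 1.17 and 0.812 (3.69 ± 0.46, adjusted p = 0.0063). Stam region 1 was the fall called in both, with 0.618 and 0.547 against 0 and 0.130 (-3.17 ± 0.74, adjusted p = 0.029). Of the regions above their level at 20 min, Nr4a2 region 1 (3.35 ± 0.50, adjusted p = 0.0086) and Scg2 region 1 (3.61 ± 0.56, adjusted p = 0.0095) were called in total RNA. Hsd17b12 region 3 (0.60 ± 0.65, adjusted p = 0.68) and Nr4a3 region 5 (0.90 ± 0.76, adjusted p = 0.54) were not, at values of 0.0325 to 0.240 in those libraries. The regions of Kcna1 that fell in capture were not tested in total RNA, where their values were at most 0.0492.

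**Figure D5:**
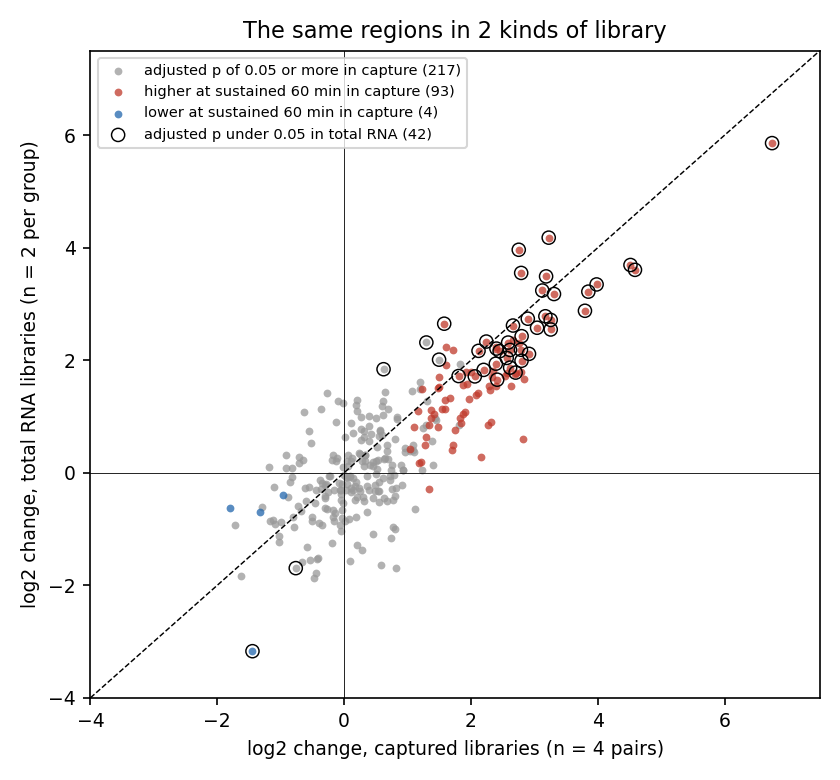
Log2 change at 60 min of sustained activity in captured libraries (x axis, 4 pairs) against total RNA libraries (y axis, 2 replicates per group) for 314 regions tested in both, coloured by the captured call and ringed where the total RNA test passed. Of 93 captured rises, 92 lie above 0 in total RNA, and the dashed line marks equal change.

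Introns of the nearest genes, read in the same total RNA as RPM, gave a measure of transcription of the genes themselves. A transcript was found for 154 of the 169 genes, the one with the highest mean level, and 143 were tested. Among 47 genes with a region that rose, 20 had introns that rose (42.6%) with a median log2 change of 1.32, and among 96 without, 14 rose (14.6%) with a median of 0.33. Over all 21493 transcripts 0.944% rose and 0.568% fell, 1.51% in all. With the replicate block in the fit the balance turned, with 1025 transcripts higher and 2104 lower. Intron levels went from 0.933 and 1.10 to 128 and 103 for Nr4a1 (adjusted p = 0.0021), from 0.312 and 1.72 to 83.3 and 79.5 for Fos (0.022), and from 0.664 and 0.824 to 93.1 and 69.1 for Npas4 (0.0069).

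The nearest gene did not always move with its regions. Among the 47 genes, 14 had an intron change below 0.5, such as Maml3 (12.9 and 16.0 against 18.1 and 20.0, log2 change 0.40, adjusted p = 0.32). Omg introns were at 0.705 and 0.201 unstimulated and 0.905 and 0.861 sustained (adjusted p = 0.41), beside the largest region change of the table. At least 1 of the 2 Omg regions lies far from that gene, so which of them belongs to it is uncertain. Conversely Homer1 introns rose from 122 and 94.9 to 481 and 423 (2.07, adjusted p = 0.024), and Pcsk1 introns from 2.88 and 3.80 to 196 and 158 (5.63, adjusted p = 0.0021), while their single captured regions were not called on the deposited scale. The Pcsk1 region still changed by 1.81 on that scale, and it was called higher after rescaling by the median ratio. Of the 105 tested regions of genes whose introns rose, 46 rose (43.8%, against 27.9% of all tested regions). With 2 replicates per group the intron calls depended on the other groups in the fit, leaving out 1 replicate left 3 to 9 transcripts, and with only the 2 groups in the fit 0 were called (2530 at an unadjusted p under 0.05, and 386 by edgeR with all groups).

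The filter on low values left out 10 regions, which were not tested: 3 near Kcna1 and 1 each near Cartpt, Fbxo33, Gpr26, Nr3c1, Pcdh20, Pfn2 and Slco1c1. Over the unstimulated, sustained and 60 min brief groups their mean signal was at most 0.247, and the filter also took in 20 min of brief activity. Fbxo33 region 1 had sustained values of 1.16, 0.558, 0.550 and 0.771 against an unstimulated mean of 0.0497. Kcna1 regions 2 and 8 were at 0 in sustained replicates 1 and 2, with unstimulated means of 0.291 and 0.356. None of the 351 regions was assigned to Bdnf or Nptx2 in the table.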

How the data were processed

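Captured enhancer RNA was deposited by the authors as a signal per region, scaled by a factor per library that no label or header states; its values are whole multiples of 1 step in each library (tolerance 0.05 reads). The total RNA enhancer signal was deposited likewise, and introns were deposited by the authors as RPM (reads scaled to a common total). The submitters' processing notes name STAR, SAMtools and bedtools, without versions, and the build mm9. The kit keeps strand, but whether counting used it is not given there. The 7 other tables were not used.

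Values were tested with limma 3.58.1 (R 4.3.3) on the log2 scale after adding a pseudocount (0.240 captured, 0.0289 total RNA, 0.250 introns), so that folds of weak regions are understated, and features with a mean below the pseudocount were left out. The captured fit held 5 vehicle groups of 4 with the replicate number as a block. Same-numbered libraries deviated together, with correlations of 0.20 to 0.68 over 40 pairs, against -0.42 to 0.36 for other numbers, and in unstimulated cultures the number marks a dissection per the labels. Total RNA and introns had 2 replicates per group, no block. Elsewhere nothing says that replicates were separate animals, so p-values measure the spread between these samples. edgeR 4.0.16 on recovered reads, other scalings, filters and left-out replicates were alternatives. Scripts were tested on simulated data; Python 3.11.15 made tables and matplotlib 3.10.9 figures. The members, gene lists and tests were chosen with earlier results of these data known. Named regions were the 12 largest rises and 6 largest falls with 4 concordant pairs, all regions of Fos, Arc, Nr4a1, Bdnf, Npas4, Egr1, Nptx2 and Pcsk1, the 3 largest differences each way from 20 min and from brief activity, and up to 5 regions per list by adjusted p; others named were chosen after their values were seen. A further neuron marker is not reported here.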

Additional observations from a re-analysis of the deposited data

Results flagged for a closer look

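In 6 of the 144 sets of 4 replicates examined at 72 named regions, 1 library stood apart from the other 3 on the log2 scale by Dixon's criterion, which chance meets in about 1 in 20 sets. In unstimulated cultures the highest value stood apart at Arc region 1 (0.729), Egr1 region 5 (3.84) and Cyr61 region 1 (15.8), and the lowest at Bcl9 region 1 (1.01) and Kcna2 region 1 (0.301). After sustained activity the highest value stood apart at Klf4 region 1 (2.88). The level at 60 min of sustained activity differed from that at 20 min in 23 regions and from that at 60 min of brief activity in 77, each by the test of that difference in limma, with the regions named above.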

How the results depend on the processing

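At 60 min of sustained activity against unstimulated, 101 regions were called, and the count stayed within 1.5 times of that under both other pseudocounts, both other filters, either unstimulated culture, edgeR on both scales and without any 1 replicate (69 to 101). It was 159 with the same read total, 51 without the replicate block, 33 with all 10 groups and no replicate block, 50 in replicates 1 and 2 and 157 in replicates 3 and 4. Without the deep first culture of unstimulated dissection 1, chosen after seeing the data, it was 101. The directions moved even where the total stayed in that range. They were 95 higher and 6 lower in the main fit, 74 and 44 after rescaling by the median ratio, and 46 and 42 with edgeR and TMM. Against 20 min, 23 calls became 8 without the replicate block, 7 with all 10 groups and no replicate block, 6 in replicates 1 and 2, 64 in replicates 3 and 4, and 14 to 21 with 1 replicate left out. Against brief activity, 77 calls became 29, 14, 34 and 144 under the same settings, 40 with only the 2 groups, and 44 to 73 with 1 replicate left out. In total RNA, 43 calls became 28 with no filter, 17 rescaled, 22 with only the 2 groups and 4 to 11 with 1 replicate left out, and 47 with the replicate block. The intron calls, 325, became 783 with no filter, 588 with a filter at the 25th percentile, 3129 with the replicate block, 0 with only the 2 groups and 3 to 9 with 1 replicate left out, where the lone replicate is assumed to vary like the other groups. The cause of these differences was not tested. None of the 95 rises turned under rescaling by the median ratio. After rescaling by the median ratio, 85 regions with no call and a change above 0 had one below 0. Direction under every alternative was followed for the 72 named regions only, and those that turned had no call on the deposited scale. With libraries rescaled by the median ratio the log2 change was -0.57 at Per2 region 2, -0.30 at Dusp6 region 1, -0.67 at Dusp6 region 2, -0.63 at Per1 region 1, -0.12 at Fos region 6, -0.35 at Gadd45g region 1 and -0.49 at Homer1 region 1. It was -0.41 at Nr4a1 region 3, -0.14 at Adamts1 region 2, -0.042 at Egr1 region 1 and -0.12 at Egr1 region 4 there. With the same read total in every library the log2 change was -0.81 at Per2 region 2, -0.52 at Dusp6 region 1, -0.98 at Dusp6 region 2, -0.95 at Per1 region 1, -0.29 at Fos region 6, -0.56 at Gadd45g region 1 and -0.82 at Homer1 region 1. It was -0.63 at Nr4a1 region 3, -0.077 at Nr4a1 region 4, -0.38 at Adamts1 region 2, -0.25 at Egr1 region 1, -0.35 at Egr1 region 4 and -0.13 at Egr1 region 8 there. With edgeR and TMM the log2 change was -1.17 at Per2 region 2, -0.67 at Dusp6 region 1, -0.97 at Dusp6 region 2, -0.90 at Per1 region 1, -1.57 at Fos region 6, -1.52 at Gadd45g region 1 and -0.68 at Homer1 region 1. It was -0.59 at Nr4a1 region 3, -0.12 at Nr4a1 region 4, -0.32 at Sik1 region 1, -0.16 at Egr1 region 1, -0.072 at Egr1 region 2 and -0.34 at Egr1 region 4 there. With edgeR on the deposited scale the log2 change was -0.082 at Dusp6 region 2, 0.14 at Omg region 2, -0.49 at Fos region 6, -0.46 at Gadd45g region 1 and 0.073 at Klf4 region 1. With the first unstimulated culture only the log2 change was -0.17 at Per2 region 2, -0.043 at Gadd45g region 1, 0.047 at Egr1 region 7, 0.20 at Egr1 region 9, 0.052 at Npas4 region 4, 0.52 at Klf4 region 1 and 0.30 at Acan region 1. With the second unstimulated culture only the log2 change was -0.020 at Dusp6 region 2. In replicates 1 and 2 alone the log2 change was 0.64 at Btg2 region 2, -0.10 at Nr4a1 region 3, -0.015 at Adamts1 region 2, 0.45 at Egr1 region 7, 0.31 at Klf4 region 1 and 0.19 at Acan region 1. In replicates 3 and 4 alone the log2 change was -0.29 at Per2 region 2, -0.34 at Dusp6 region 1, -0.52 at Dusp6 region 2, -0.33 at Per1 region 1, 0.76 at Omg region 2, -0.15 at Fos region 6 and -0.70 at Gadd45g region 1. It was -0.071 at Homer1 region 1, -0.34 at Nr4a1 region 4 and 0.037 at Npas4 region 4 there. Leaving out 1 replicate at a time gave -0.14 to 0.17 at Per2 region 2, -0.51 to 0.19 at Btg2 region 2, -0.70 to 0.62 at Dusp6 region 1, -0.30 to 0.28 at Dusp6 region 2 and -0.055 to 0.30 at Per1 region 1. It gave -0.15 to 0.40 at Fos region 6, -0.46 to 0.48 at Gadd45g region 1, -0.0023 to 0.36 at Homer1 region 1, -0.53 to 0.14 at Egr1 region 7 and -0.57 to 0.22 at Egr1 region 9. It gave -0.25 to 0.21 at Npas4 region 4, -0.85 to 0.56 at Klf4 region 1 and -0.32 to 0.0029 at Acan region 1. In the unstimulated and sustained 60 min groups captured depth was 141067 to 943575 reads per library. In brief 60 min replicates 1 and 2 it was 124696 and 100848 reads, with 80 and 85 regions at 0. In sustained replicates 1 and 2, 47 to 53 regions were at 0, which limits what a fall of a weak region can show there.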
